A study of Carassius auratus with 6 samples.

Results

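The genes described here build, break down and regulate glycogen in the liver of Carassius auratus. They encode glycogen synthase (gys1 and gys2), glycogen phosphorylase (pygl, pygm and pygb), the branching enzyme (gbe1) and the PPP1R3 subunits (ppp1r3b, ppp1r3c, ppp1r3d and ppp1r3g), which bring protein phosphatase 1 to the glycogen particle. Members were taken by gene name from the deposited expression table, each gene copy as its own entry, which gave 31 copies of 10 genes out of 47544 genes. Liver RNA, labelled as wild-type Carassius auratus, was sequenced from 3 control samples and from 3 samples under hypoxia stress, whose titles give 12 h. The oxygen level, the strain, the age and the sex are not stated in the labels, nor is it stated whether each replicate was a separate animal. The p-values therefore measure the spread between these samples, which may be technical.

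Glycogen synthase adds glucose units to the growing particle, the branching enzyme makes the branches, and phosphorylase releases glucose 1-phosphate from the chain ends. Phosphorylation switches synthase off and phosphorylase on. Protein phosphatase 1 reverses both, and its PPP1R3 subunits decide where on glycogen it acts. In mammals GYS2 and PYGL are the liver forms of the enzymes, GYS1 and PYGM the muscle forms and PYGB the brain form. Goldfish and crucian carp, whose genomes are duplicated, are known for a large liver glycogen store that fuels survival without oxygen.

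Recovered read totals lay between 15734847 and 22782649 per library. Levels below are normalized counts, that is, reads divided by a size factor per library and not by gene length, so levels are compared between libraries and not between genes. Group values are means ± SD of n = 3 libraries. Changes are hypoxia minus control in log2(normalized count + 1), ± SE, from limma's moderated test over 41045 genes with Benjamini-Hochberg adjusted p, and a copy rose or fell where that p was under 0.05. Adding 1 makes the change of low copies smaller than the ratio of means. Copies are given by the name in the table and by NCBI gene identifier. How reads that fit more than 1 near-identical copy were assigned is not stated, so the split of a gene's level among similar copies is uncertain.

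Hepatocyte markers were abundant in every library: 13 copies of 6 of 8 marker genes summed to between 369643 and 807291. Between 75.3% and 86.7% of that sum was the fibrinogen chain FGB, which did not pass the test. Of the 12 tested hepatocyte copies 3 fell. The liver fatty acid binding protein fabp10a went from a mean of 10145 to 1793 and the apolipoprotein copies APOA1 113116733 and 113116736 from 17986 to 3705 and from 4062 to 677 (limma's adjusted p 0.0237, 0.0234 and 0.0413). For 4 of the 13 copies hypoxia values were all below control values, and for 0 all above, where 24.6% of all tested genes did either. The exocrine pancreas, which in carp lies within the liver, varied between libraries. Its 13 marker copies, from 4 of 8 genes, summed to 81746, 195 and 8916 in controls 1 to 3 and to between 30558 and 90639 after hypoxia. Islet markers (9 copies of 3 of 4 genes) summed to 50.9 to 403 in controls and 409 to 1283 after hypoxia. Endothelial markers (10 copies of 4 genes) summed to 559 to 655 and 865 to 1810, so that for both the groups did not overlap. Of the endothelial copies 6 lay all above controls and 0 all below, and kdr 113063322 and 113120988 rose (limma's adjusted p 0.0213 and 0.0292). Of the islet copies 4 lay all above and 1, pdx1 113066262, all below. Of the exocrine pancreas, islet, erythrocyte, leukocyte, neuron and oocyte copies limma called 0, against 2.24% of all tested genes. In none of these lists was a copy at 0 in all 6 libraries. The part of these markers in the changes below was not tested. In whole tissue, fewer cells of a type and less RNA per cell cannot be told apart.

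Of the 31 copies, 30 passed the filter, a mean normalized count of 1 or more. Among these 30, 6 rose and 2 fell, where 1.83% of all tested genes rose, 0.417% fell and 2.24% did either. edgeR on the recovered reads called 6 of the 30, against 1.92% of all tested genes, and DESeq2 called 11, against 6.66%. Control replicate 2 correlated least with its own group (mean r 0.881 over genes, against 0.906 to 0.946 for the other libraries), and without it 6 copies rose and 1 fell. Without any other single library 1 to 3 copies rose and 0 to 1 fell. Calls over all tested genes were also the most without control replicate 2, among the fits without 1 library. The risen copies were both GYS1 copies, Pygm 113105738, ppp1r3cb 113054142, and PPP1R3D 113045867 and 113041094. Those that fell were Pygl 113056806 and ppp1r3b 113064214. Hypoxia and control values did not overlap for 14 of the 30, of which 8 were higher and 6 lower after hypoxia, against 24.6% of all tested genes. The median change was 0.00 both over the 30 copies and over all tested genes. The authors' deposited table listed 8 of the 31 copies as higher and 3 as lower at an adjusted p under 0.05, against 5.49% of all its genes in either direction, and all 8 copies called here were among them.

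**Figure D1:**
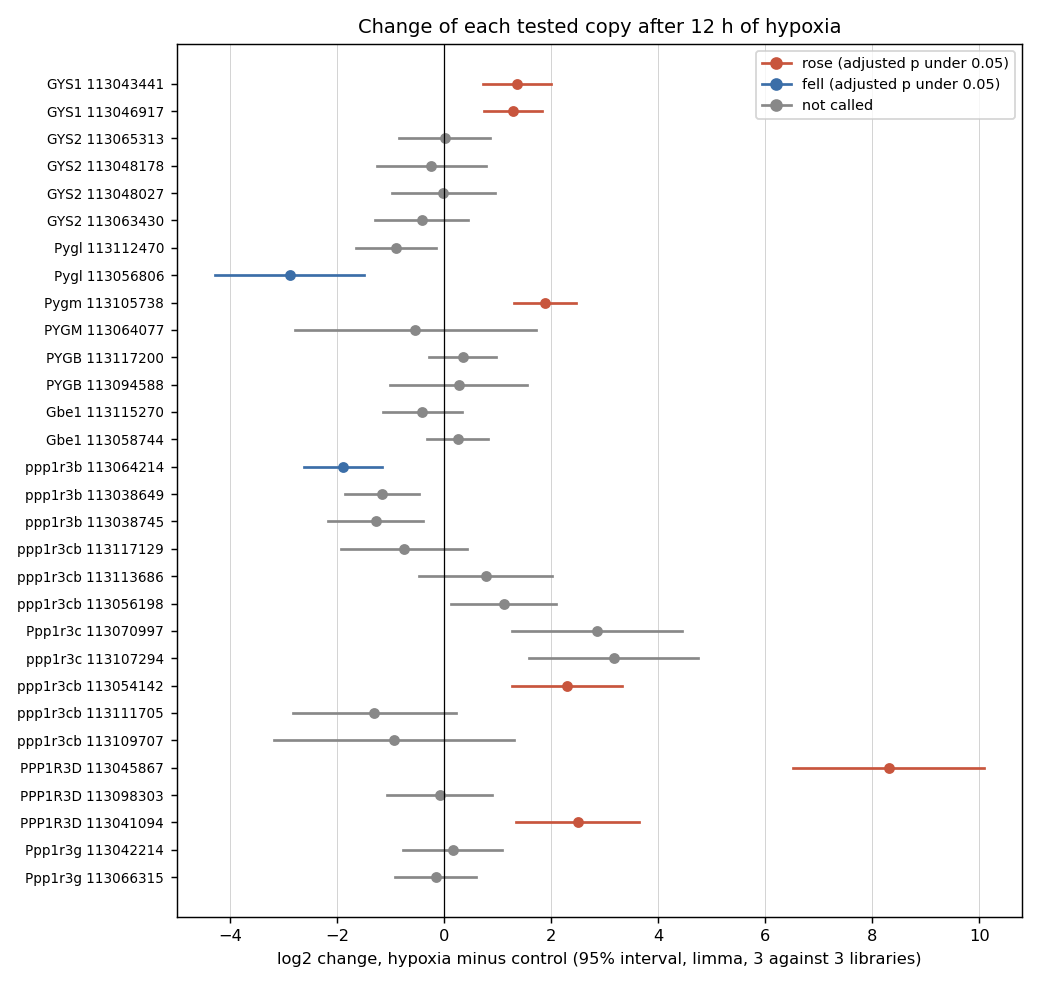
Log2 change (hypoxia minus control, horizontal axis) of each of the 30 tested copies with its 95% interval from limma, 3 libraries against 3. The 6 copies that rose lie between 1.29 and 8.30 and the 2 that fell at -1.89 and -2.89, while the 4 GYS2 copies lie between -0.42 and 0.01.

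Glycogen synthase of the muscle type rose while the liver type, which gave most synthase reads in every library, did not pass the test. GYS1 113043441 was at 238, 127 and 193 in controls 1 to 3 and at 513, 465 and 421 in hypoxia libraries 1 to 3. Every hypoxia library was above every control library, and the mean was 2.50 times the control mean (186 ± 56.0 and 466 ± 46.0, change 1.36 ± 0.28, adjusted p = 0.0432). The other copy, GYS1 113046917, was at 112, 107 and 129 in controls and at 328, 283 and 247 after hypoxia. Its groups did not overlap either, with means of 116 ± 11.4 and 286 ± 41.0, a ratio of 2.46 (1.29 ± 0.24, adjusted p = 0.0299). The copies differed little in their change (difference 0.07, two-sided exact permutation p = 0.7, where 3 against 3 libraries allow no p below 0.1). The pancreas markers, whose part was not tested, were at 81746, 195 and 8916 in controls 1 to 3. GYS1 113043441 had the same order of controls, while GYS1 113046917 did not. The summed islet, skeletal muscle and leukocyte markers had that order of controls too. In hypoxia libraries 1 to 3 the pancreas markers were at 38622, 90639 and 30558, an order that neither GYS1 copy had. Both calls held without control replicate 2 and were lost without any other single library, with adjusted p of 0.0655 to 0.186 for 113043441 and 0.0885 to 0.149 for 113046917. edgeR did not call 113043441 (1.31, adjusted p = 0.0596).

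The 4 GYS2 copies, named for the liver synthase, had changes between -0.42 and 0.01. In limma 0 were called and 0 had an unadjusted p under 0.05, and edgeR and DESeq2 called 0. Copy 113065313 gave 74.4% of GYS2 reads in controls and 77.4% after hypoxia. It was at 1179, 2173 and 944 in controls and at 1427, 928 and 1866 after hypoxia, so the hypoxia values lay within or just below the control range. The change was 0.01 ± 0.38 (adjusted p = 0.992, 95% interval -0.84 to 0.86), and its sign turned under other scalings. GYS2 113048178 was at 205 ± 108 and 156 ± 43.4, and 113048027 at 179 ± 83.5 and 167 ± 58.1. The lowest of the 4 copies, 113063430, was at 110 ± 10.1 and 88.6 ± 41.1. Control replicate 3 was the lowest control library for all 4 copies.

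Summed over copies, GYS1 went from 303 ± 60.4 to 752 ± 87.0 and GYS2 from 1925 ± 826 to 1819 ± 505. The GYS1 copies made up 16.8%, 7.66% and 21.0% of synthase counts in the 3 controls and 30.1%, 37.3% and 22.9% after hypoxia. Each hypoxia library was above each control library, with hypoxia replicate 3 only slightly above control replicate 3. These shares depend on gene length, which was not used here, and were not tested.

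The branching enzyme did not pass the test in either copy, by limma, edgeR or DESeq2 or at an unadjusted p under 0.05. Gbe1 113115270 was at 1439, 1698 and 1247 in controls and at 1588, 692 and 1182 after hypoxia, a change of -0.41 ± 0.33 (adjusted p = 0.536, 95% interval -1.15 to 0.33). Gbe1 113058744 was at 538 ± 37.8 and 655 ± 164, with a change of 0.25 ± 0.25 that missed the threshold (adjusted p = 0.624). The groups overlapped for both copies, and hypoxia replicate 2 was the lowest of all libraries for both.

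**Figure D2:**
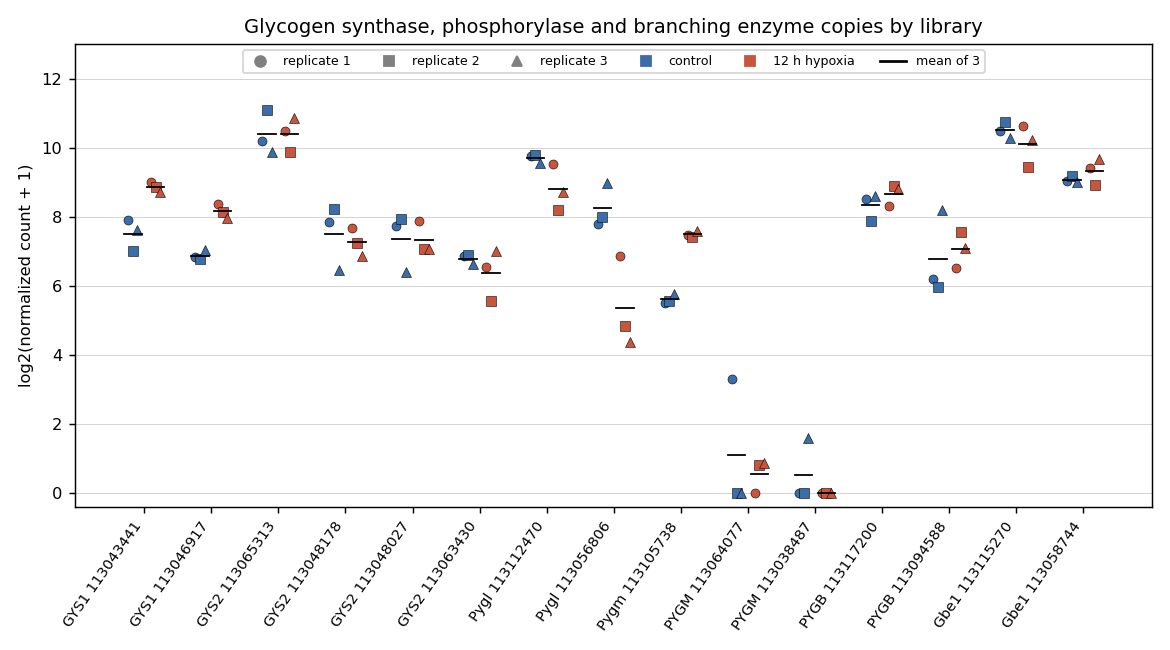
Log2(normalized count + 1) of each synthase, phosphorylase and branching enzyme copy in every library (blue control, red 12 h hypoxia, marker shape the replicate number, bars the means of 3). Both GYS1 copies and Pygm 113105738 have all hypoxia points above all control points, both Pygl copies have them below, and the GYS2, PYGB and Gbe1 groups overlap.

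Phosphorylase changed in both directions: a liver-type copy fell and a muscle-type copy rose. Pygl 113056806 was at 220, 252 and 497 in controls and at 116, 27.5 and 19.5 after hypoxia. Hypoxia replicate 1 stood above the other 2 hypoxia libraries and still below every control. The mean went from 323 ± 152 to 54.3 ± 53.4, which was 5.95-fold lower, and the change of -2.89 ± 0.61 lay at the threshold (adjusted p = 0.0499). The call held without hypoxia replicate 1 (adjusted p = 0.0182) and was lost without any other single library (0.0649 to 0.254, the highest without control replicate 3).

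The more abundant copy, Pygl 113112470, gave 72.1% of Pygl reads in controls and 89.8% after hypoxia. It was at 865, 888 and 753 in controls and at 732, 289 and 419 after hypoxia. Hypoxia replicate 1 was only slightly below the lowest control, and the copy was not called (-0.90 ± 0.33, adjusted p = 0.200, 95% interval -1.65 to -0.15). The log2 ratio of copy 113056806 to copy 113112470 was lower in every hypoxia library (mean -3.45) than in every control library (mean -1.46). That difference of -1.99 between the copies' changes had an exact permutation p of 0.1, the smallest that 3 against 3 libraries allow. The pair is the called copy and the other tested copy of that gene. Together the Pygl copies went from 1158 ± 84.3 to 534 ± 279.

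Pygm 113105738, named for the muscle phosphorylase, had narrow groups that lay far apart. It was at 44.0, 46.2 and 53.0 in controls and at 176, 169 and 191 after hypoxia. The mean was 3.74 times the control mean (47.7 ± 4.73 and 179 ± 11.4, change 1.89 ± 0.26, adjusted p = 0.00715). The call held in 4 of 6 fits without a library, with adjusted p of 0.0584 without hypoxia replicate 1 and 0.0621 without hypoxia replicate 3. Skeletal muscle markers as a list (18 copies of 6 of 9 genes) summed to 322 to 562 in controls and 528 to 1092 after hypoxia, groups that overlapped. Of the 18 copies, 5 had hypoxia values all above control values and 2 all below, where 24.6% of all tested genes did either. Among these TNNT3 113106121 and Tnni2 113051645 were near the floor. The nearest control and hypoxia values were 1.16 and 1.18 for the former and 1.16 and 0.765 for the latter. The tropomyosin copy tpm1 113040162 rose, from 92.3, 86.7 and 76.1 to 215, 429 and 192 (1.61 ± 0.33, adjusted p = 0.0458), and was the only 1 of 13 tested copies that was called. From the list the contractile and creatine kinase genes ckm, mylpf, tnnt3 and tnni2 were picked for a separate sum. Their 11 copies together were at 17.0 to 37.0 in controls and 9.76 to 29.5 after hypoxia. That sum leaves out tpm1 and atp2a1. Means of tpm1 113064828, 113040154 and 113053987 went from 153 to 192, 32.7 to 51.2 and 22.1 to 40.2. Those of atp2a1 copies 113049436, 113072468 and 113046946 went from 124 to 163, 0 to 4.51 and 1.12 to 0. The part of muscle cells in the rise of Pygm was not tested.

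The other PYGM copies were almost silent. PYGM 113064077 had 8 reads in controls, all in control replicate 1, and 2 after hypoxia, a ratio of control to hypoxia of 4.88 with an exact 95% counting interval of 0.974 to 47.2. PYGM 113038487, a pseudogene by its reference entry, was seen with 2 reads in 1 control and 0 elsewhere, and was the copy that failed the filter. The brain-type PYGB 113117200 was at 327 ± 79.6 and 412 ± 82.0 (0.34 ± 0.28, adjusted p = 0.543), and PYGB 113094588 was at 143 ± 131 and 138 ± 49.2 (0.27 ± 0.57, adjusted p = 0.835). In the latter, control replicate 3 at 294 stood above the other controls at 72.5 and 61.3.

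The mix of phosphorylase transcripts shifted with these changes. Pygl copies made up 69.0%, 76.9% and 63.0% of phosphorylase counts in controls and 59.2%, 27.5% and 36.3% after hypoxia. The share of the PYGM copies went from 3.36%, 3.12% and 2.78% to 12.3%, 14.8% and 15.9%. Neither pair of groups overlapped. PYGB copies made up 27.6%, 20.03% and 34.2% in controls and 28.5%, 57.7% and 47.8% after hypoxia, where the groups did overlap. All phosphorylase copies together were at 1679 ± 267 and 1264 ± 150, and all synthase copies at 2228 ± 775 and 2571 ± 492. The ratio of summed synthase to summed phosphorylase counts was 1.33, 2.07 and 0.774 in controls and 1.95, 1.75 and 2.41 after hypoxia. The ratios of the groups overlapped, since control replicate 2 lay above hypoxia replicates 1 and 2. The sums and shares were not tested.

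**Figure D3:**
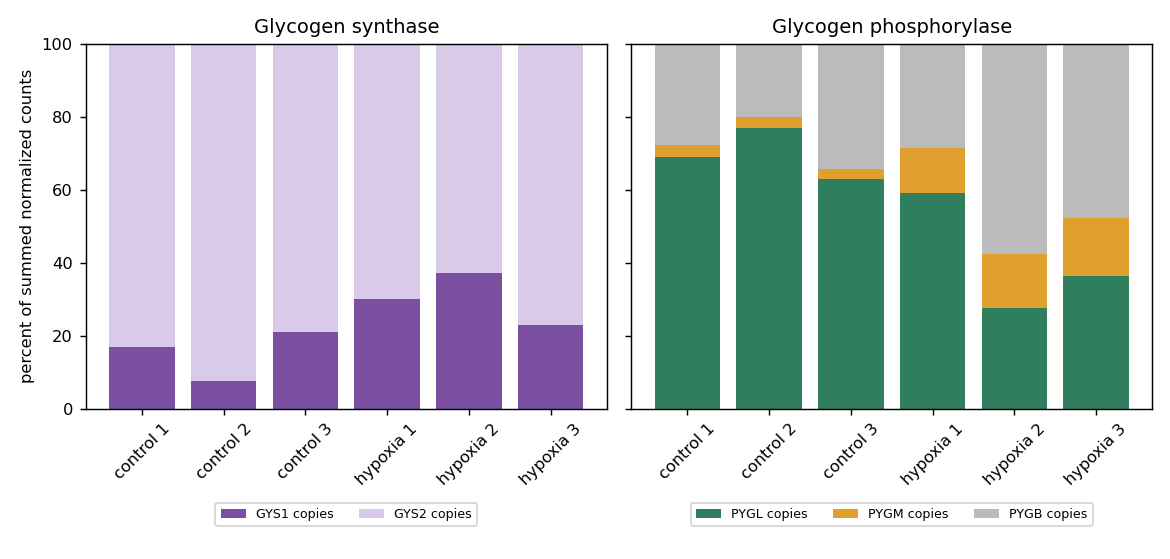
Percent of summed normalized counts from each gene's copies among synthase copies (left) and phosphorylase copies (right), 1 bar per library. GYS1 makes up 7.66% to 21.0% in controls and 22.9% to 37.3% after hypoxia, and PYGM 2.78% to 3.36% and 12.3% to 15.9%.

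Among the PPP1R3 subunits, 3 of 16 copies rose and 1 fell, where 1.83% of all tested genes rose and 0.417% fell. The genes differed in direction. PPP1R3B, the main glycogen-targeting subunit of mammalian liver, directs phosphatase to synthase and is held back by active phosphorylase. Its most abundant copy, ppp1r3b 113064214, was at 1503, 1440.3 and 705 in controls and at 259, 333 and 344 after hypoxia. The hypoxia libraries lay close together, and all were below the lowest control, replicate 3. The mean went from 1216 ± 444 to 312 ± 46.5, which was 3.90-fold lower (-1.89 ± 0.32, adjusted p = 0.0208). The call held without control replicate 2 or 3 and was lost without any other single library (adjusted p 0.0817 to 0.128). The falls of fabp10a and of APOA1 copies 113116733 and 113116736 went the same way as those of ppp1r3b and Pygl. These were the only 3 of 12 tested hepatocyte copies that fell, and 0 rose. Changes of the others went both ways, from -1.93 (apoa1 113049064) to 1.34 (APOA1 113059710). The most abundant apoa1 copy, 113077258, changed by 0.06 ± 0.76. The part of hepatocyte content in the falls of ppp1r3b and Pygl was not tested.

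The other ppp1r3b copies were likewise lower after hypoxia and were not called by limma. Their groups did not overlap, as for 24.6% of all tested genes. Copy 113038649 was at 318, 475 and 280.3 in controls and at 137, 126 and 216 after hypoxia (-1.16 ± 0.31, adjusted p = 0.0977). DESeq2 called that copy as lower (adjusted p = 0.0284) and edgeR did not (0.117). Copy 113038745 was at 197, 322 and 167 and at 82.7, 58.9 and 150 (-1.28 ± 0.39, adjusted p = 0.14). Over all 3 copies the sum was 2018, 2238 and 1152 in controls and 478, 518 and 710.4 after hypoxia, so that the means were 3.17-fold apart. As a share of all PPP1R3 counts, ppp1r3b went from 19.2 ± 4.16% to 5.71 ± 1.79%.

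PPP1R3C, also called protein targeting to glycogen, binds synthase, phosphorylase and the phosphatase together, and in human cells its gene is known to be induced by hypoxia-inducible factor. Its 8 copies are described here by level, which their changes did not strictly follow. The 3 abundant copies overlapped between groups and were not called. Copy 113117129, which the reference calls ppp1r3ca, was at 2478, 3023 and 3601 in controls and at 3226, 693 and 2529 after hypoxia (-0.75 ± 0.52, adjusted p = 0.475). Copy 113113686 was at 1299, 3101 and 562 and at 2363, 1611 and 2978 (0.77 ± 0.55, adjusted p = 0.484). Copy 113056198 was at 871, 1496 and 873 and at 3878, 1175 and 2535 (1.11 ± 0.43, adjusted p = 0.22, 95% interval 0.13 to 2.097). Hypoxia replicate 2 was the lowest hypoxia library in all 3.

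Of the low ppp1r3c copies, 3 had hypoxia values all above their control values, and 1 of these rose. Over all tested genes the groups did not overlap, in either direction, for 24.6%. Copy ppp1r3cb 113054142 was at 11.0, 9.25 and 14.0 in controls and at 40.2, 95.6 and 54.5 after hypoxia. Its mean was 5.55 times the control mean (11.4 ± 2.41 and 63.4 ± 28.8, change 2.30 ± 0.46, adjusted p = 0.0389). The call held without control replicate 2 and was lost without any other single library (0.105 to 0.162). Copy ppp1r3c 113107294 was at 7.69, 5.78 and 39.0 and at 64.98, 199 and 129 (3.17 ± 0.70, adjusted p = 0.0551), and Ppp1r3c 113070997 at 46.2, 9.25 and 59.1 and at 112, 444 and 214 (2.85 ± 0.70, adjusted p = 0.0802). Hypoxia replicate 2 was the highest library for all 3, the reverse of the abundant copies. DESeq2 also called 113107294 and 113070997 as higher (adjusted p 0.00259 and 0.00177), while edgeR did not (0.0837 and 0.0814). The lowest copies were 113111705, at 8.67 ± 5.86 and 2.60 ± 1.12, and 113109707, with 10 reads in controls and 4 after hypoxia. For 113111705 every hypoxia value lay below every control value, and it was not called (limma's adjusted p = 0.335).

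Because the abundant copies gave most of the counts, the sum of the 8 ppp1r3c copies was 5847 ± 1575 in controls and 7451 ± 2863 after hypoxia. The groups overlapped, and hypoxia replicate 2 (4225) was below every control. The called copy gave 0.195% of this sum in controls and 0.851% after hypoxia. Its change lay 3.61 above that of 113111705, the copy with the most opposite change, a pair chosen for this difference and therefore not tested.

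PPP1R3D carried the largest change among the members. PPP1R3D 113045867 had 0, 0 and 3 reads in controls 1 to 3 and was at 171, 635 and 1155 normalized counts after hypoxia. All hypoxia libraries were far above all controls, although they spread widely among themselves. From 3 control and 2394 hypoxia reads the level was 654 times that of controls, with an exact 95% counting interval of 224 to 3175. The fitted change was 8.30 ± 0.79 (adjusted p = 0.00113), and it was the only called member that kept its call in all 6 fits without a library (adjusted p up to 0.0242).

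PPP1R3D 113041094, which the reference calls ppp1r3da, was low but rose too. It was at 5.49, 3.47 and 3.00 in controls and at 23.6, 27.5 and 28.5 after hypoxia, a ratio of means of 6.66 from 11 and 91 reads (2.49 ± 0.51, adjusted p = 0.0437). This call, too, held without control replicate 2 and was lost without any other single library (0.0890 to 0.168). It was also lost without a filter on low values (0.0578) and with a mean of at least 10 (0.0546). The third copy, the pseudogene 113098303, was at 29.997 ± 3.65 and 29.9 ± 12.9 (-0.08 ± 0.44, adjusted p = 0.94). In controls that pseudogene copy gave 85.7% of the PPP1R3D counts, whereas after hypoxia 113045867 gave 92.0%. Over the 3 copies the sum went from 39.6, 32.4 and 33.0 to 223, 706 and 1201. Its share of all PPP1R3 counts went from 0.468%, 0.256% and 0.457% to 1.85%, 10.3% and 9.53%.

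PPP1R3G, a targeting subunit that in mouse liver is regulated by feeding, did not pass the test. Ppp1r3g 113042214 was at 1556, 2631 and 819 in controls and at 1604, 1359 and 2140.1 after hypoxia (0.16 ± 0.41, adjusted p = 0.868, 95% interval -0.77 to 1.09). Its hypoxia values lay inside the control range. The minor copy 113066315 was at 96.1 ± 27.7 and 84.9 ± 19.2 (-0.16 ± 0.33, adjusted p = 0.838).

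**Figure D4:**
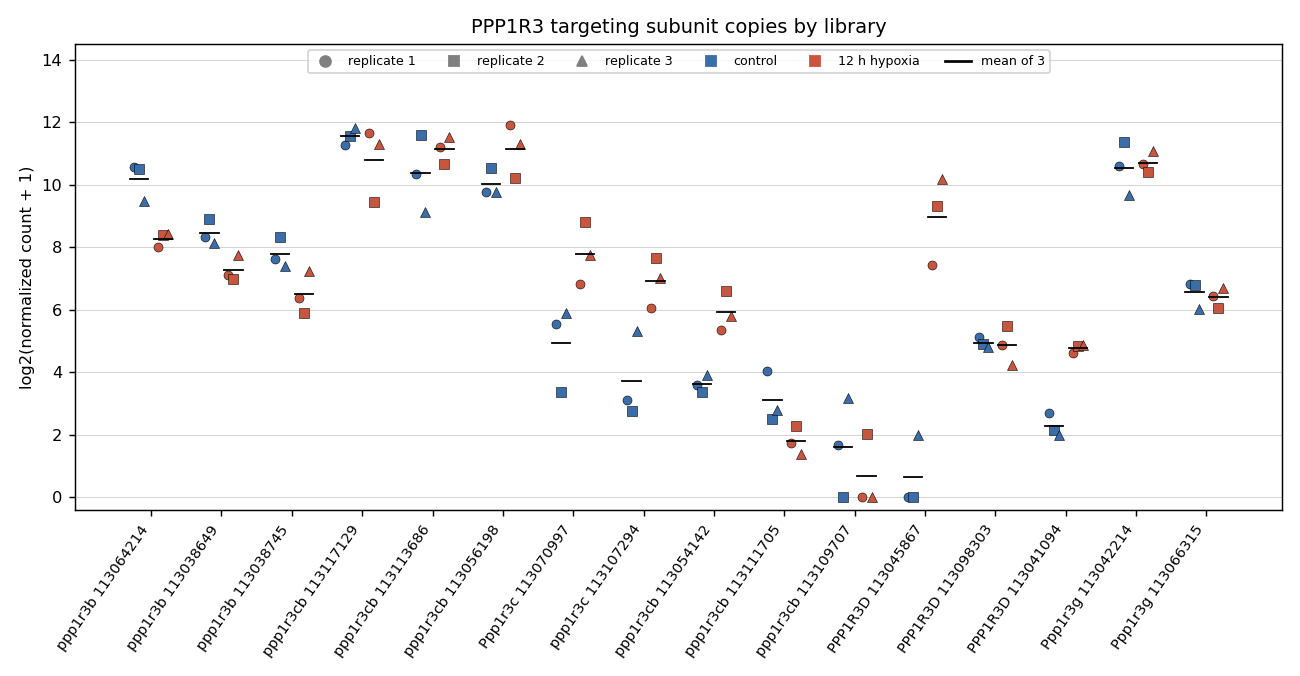
Log2(normalized count + 1) of each of the 16 PPP1R3 copies in every library (blue control, red 12 h hypoxia, marker shape the replicate number, bars the means of 3). All 3 ppp1r3b copies are lower in every hypoxia library, PPP1R3D 113045867 goes from 0 to 3 reads to 171 to 1155 normalized counts, and the Ppp1r3g groups overlap.

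Other genes of glycogen handling were looked up as a list of 39 symbols, of which 36 were found in 128 copies. Of the 116 tested copies, 9 rose and 0 fell, where 1.83% and 0.417% of all tested genes did; for falls, 10 copies had an unadjusted p under 0.05, edgeR gave 0 and DESeq2 gave 3. Over all tested genes 10.2% were higher and 8.41% lower at an unadjusted p under 0.05, edgeR called 1.51% and 0.404%, and DESeq2 4.07% and 2.59%. The median change of the list was -0.01. Without control replicate 2 the list had 14 rises, and without each other library 2 to 6. Rises over all tested genes were also the most without control replicate 2. The rises belonged to another PPP1R3 subunit, to hexokinase, to glucose-6-phosphatase, to the insulin receptor and to a regulatory subunit of protein kinase A.

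Ppp1r3e 113061797, a further glycogen-targeting subunit, was at 6.59, 1.16 and 6.01 in controls and at 131, 206 and 121 after hypoxia. Every hypoxia library was far above the controls, with a ratio of means of 33.4 (4.94 ± 0.56, adjusted p = 0.00292, up to 0.0396 without a library). The 4 tested copies of PPP1R3A, the muscle subunit, spanned -0.15 to 1.26 with 0 called by limma, edgeR or DESeq2 and 1 higher at an unadjusted p under 0.05. Thus of the PPP1R3 genes looked up, PPP1R3D and PPP1R3E had the copies with the largest changes.

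Hexokinases trap glucose in the cell as glucose 6-phosphate, from which glycogen can be made. All 3 copies of HK2 rose, by 3.26 ± 0.51 (113048751), 2.68 ± 0.49 (113048733) and 2.40 ± 0.46 (113071749), as did HK1 113112776 (2.54 ± 0.40, adjusted p = 0.0148). Copy HK2 113048733 went from 127 ± 80.2 to 726 ± 269. It was at 209, 48.5 and 124 in controls 1 to 3 and at 590, 1036 and 553 after hypoxia. HK1 113112776 was at 42.9, 19.7 and 31.0 and at 155, 277 and 130. Within each group both had the library order of the summed pancreas markers. The summed islet, skeletal muscle and leukocyte markers had the same order in both groups. HK2 113048751 and 113071749 had that order after hypoxia but not in controls. The part of pancreas, islet, muscle or leukocyte content in these rises was not tested. Glucose-6-phosphatase, which releases glucose from the liver, rose in 2 of 4 tested copies. G6PC 113056355 went from 3825 ± 1884 to 15428 ± 4336 (2.08 ± 0.42, adjusted p = 0.0425) and G6PC 113111951 from 767 ± 230 to 2885 ± 439 (1.94 ± 0.28, adjusted p = 0.00986). All 6 of these hexokinase and G6PC calls held without control replicate 2 and were lost without control replicate 3 or hypoxia replicate 2. Each held in only 1 to 3 of the 6 fits without a library, with limma's adjusted p up to 0.23.

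The insulin receptor copy INSR 113040224 was at 76.9, 52.0 and 89.1 in controls and at 489, 301 and 422 after hypoxia (2.47 ± 0.30, adjusted p = 0.00417), and kept its call in all 6 fits. The regulatory subunit PRKAR2A 113093969 rose by 1.42 ± 0.26 (adjusted p = 0.0273); it lost its call in 4 of 6 fits without a library, all but those without control replicate 2 or hypoxia replicate 2, with adjusted p up to 0.144.

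Phosphorylase kinase, which switches phosphorylase on, had 12 tested copies over 5 subunit genes. Their changes ranged from -2.06 to 0.23 and 11 of 12 lay below 0, where 20601 of all 41045 tested genes lay above 0. Both PHKG1 copies were near the floor, at control means of 2.07 and 2.13 and at 0 in every hypoxia library. By limma and edgeR 0 of the 12 were called, while 3 were lower at limma's unadjusted p under 0.05 and DESeq2 called 2 as lower. PHKA1 113064039, a regulatory subunit, was at 203.5 ± 28.6 in controls and at 77.8 ± 27.6 after hypoxia (-1.43, adjusted p = 0.0613). The 12 copies of the catalytic subunits of protein phosphatase 1 ranged from -0.65 to 0.90 and the 12 of glycogen synthase kinase 3, which phosphorylates synthase, from -0.56 to 2.36. Of each, limma and edgeR called 0, 3 and 2 copies had an unadjusted p under 0.05, and DESeq2 called 2 and 1 as higher. Glycogenin, UGP2 and the phosphoglucomutases, which supply the primer and the UDP-glucose, had 16 tested copies between -1.0004 and 1.09, 10 of them below 0, with a median of -0.25. Here limma and edgeR called 0, 2 were higher at an unadjusted p under 0.05 and DESeq2 called these groups' copies higher in 2 cases. The debranching enzyme and acid glucosidase had 7 copies between -1.21 and 0.43, with 0 called by limma or edgeR, 3 lower at an unadjusted p under 0.05 and 1 lower by DESeq2.

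**Figure D5:**
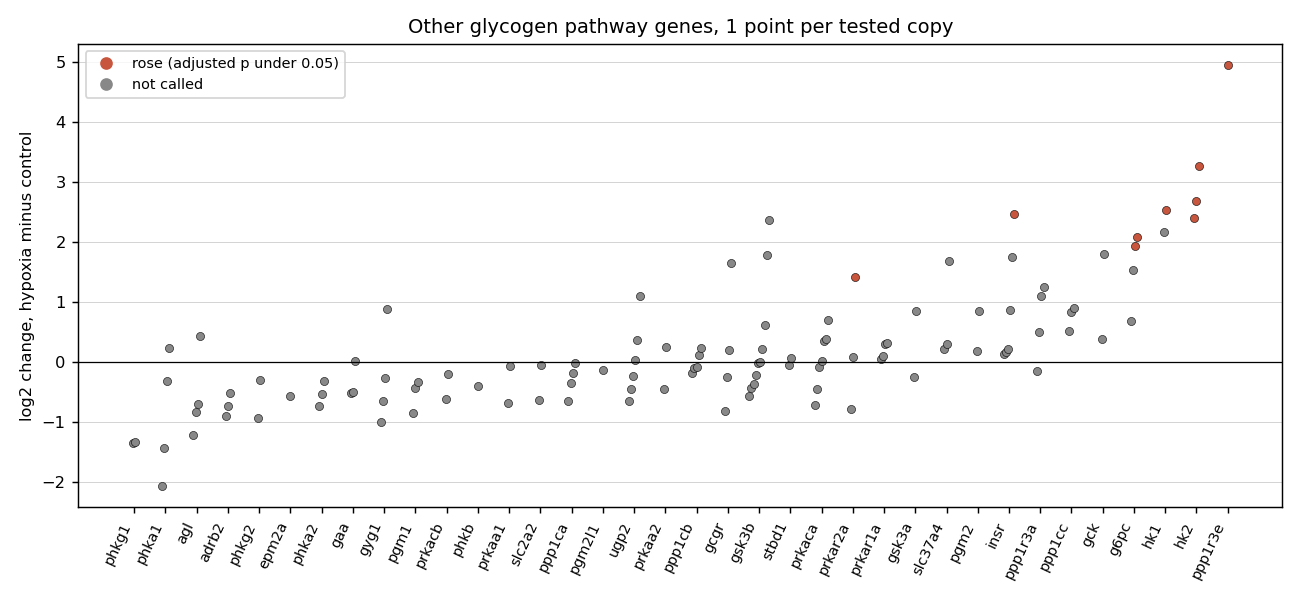
Log2 change (hypoxia minus control, vertical axis) of the 116 tested copies of other glycogen pathway genes, 1 point per copy, genes ordered by median. Red points are the 9 copies that rose, led by ppp1r3e at 4.94. The HK2 copies lie at 2.40 to 3.26, with HK1 at 2.54 and INSR at 2.47 between them.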

How the data were processed

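Liver RNA libraries of 3 control and 3 hypoxia samples were compared. Bowtie2 2.2.8 and TopHat2 2.1.1 are listed in the submitters' processing notes; for the counter, genome build, annotation and strand setting the sources used here name nothing. The file calls its values FPKM, but in each library every deposited signal value was a whole multiple of 1 step (100% of values within 0.01 of a read), so the authors divided read counts by a size factor (0.846 to 1.31) and not by gene length. Whole reads were recovered from these steps. The table also gives the authors' log2 fold change, p-value and adjusted p-value, from a test that is not stated. For members these fold changes were close to those of DESeq2 on the recovered reads. They were 1.3221 and 1.3220 for GYS1 113043441, and 9.29 and 9.27 for PPP1R3D 113045867. The authors' calls and those of DESeq2 here are therefore not separate evidence.

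Members were matched by name, ignoring case, with suffixes a, b, aa, ab, ba, bb, -a or -b. All 31 matched gene identifiers of the goldfish assembly ASM336829v1, used for symbols, gene types and overlaps; 2 are pseudogenes there. In that assembly 4 members overlap another gene, 0 of them called. The members, lists and tests were chosen with earlier results of these data known. Named with full values were the called members, the most abundant copy of each gene and the called pathway copies, and the other copies were added to account for each member.

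The test was limma 3.58.1 with a mean-variance trend (R 4.3.3) on log2(normalized count + 1) for genes with a mean of at least 1, with 0.05 as threshold; its script was tested on simulated data. Alternatives were edgeR 4.0.16 and DESeq2 1.42.0 on recovered reads, other scalings, pseudocounts and filters, a replicate block, and leaving out each library. Counting intervals are 95% and cover counting error only.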

Additional observations from a re-analysis of the deposited data

How the results depend on the processing

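Over all genes, 921 were called (750 rose, 171 fell). DESeq2 called 2733 (1671 and 1062) and the replicate block 415 (354 and 61), and quantile normalization gave 274 falls. Without 1 library the calls ranged from 257 to 2185, rises from 240 to 1314 and falls from 13 to 871, the most without control replicate 2. Among members, 6 rose and 2 fell. DESeq2 called 11 of them, including all 8, where it called 6.66% of tested genes, and edgeR 6, where it called 1.92%. Falls were 1 with a pseudocount of 0.5 or 5, with a mean of at least 10 and with edgeR, in each case without Pygl 113056806. edgeR also lost GYS1 113043441 (adjusted p = 0.0596), and PPP1R3D 113041094 was lost without a filter (0.0578) and with a mean of at least 10 (0.0546). Without 1 library, 1 to 6 members rose and 0 to 1 fell. Of the 9 pathway rises, DESeq2 gave 17 and 3 falls, the replicate block 3 rises, and fits without 1 library 2 to 14 rises and 0 falls. With the replicate block 2 members rose, PPP1R3D 113045867 and Pygm 113105738, and 0 fell. Same-numbered libraries did not deviate together (correlations -0.07, -0.19 and -0.03 over 41045 genes). Whether they share more than a number is not stated in the labels. These correlations cannot settle it, because deviations from a mean of 3 libraries can follow other differences between libraries.

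GYS2 113065313 (0.01) turned to -0.0077 under TMM scaling, -0.0054 under quantile normalization, -0.0453 with edgeR and -0.0253 with DESeq2, and ranged from -0.24 to 0.36 without 1 library. Ppp1r3g 113042214 (0.16) ranged from -0.28 to 0.57 so, and the difference between the GYS1 copies was -0.12 without control replicate 2, an alternative chosen after seeing the data, with a range of -0.12 to 0.30 without 1 library. The causes were not tested. No scaling moved the median change of all genes by over 0.1. Levels per coding length were not run, since no protein lengths were used. Copies with under about 10 reads per group are limited by depth.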

Other observations

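The following was chosen after the values were seen. Of the 30 tested members, 11 had the order control replicate 2, then 1, then 3 from highest to lowest, against 16.8% of all tested genes. They were the 4 GYS2 copies, both Gbe1 copies, Pygl 113112470, ppp1r3b 113038649 and 113038745, ppp1r3cb 113113686 and Ppp1r3g 113042214. Among the hepatocyte markers, both AHSG copies, both TTR copies, Serpina1, and apoa1 113077258 and 113049064 had this order too. TTR 113062750 was near the floor, at 1.10, 1.16 and 0 in controls 1 to 3, and did not pass the filter. The abundant apoa1 113077258 was at 62131, 128004 and 33610 in controls 1 to 3. The other hepatocyte copies did not have it. Of these, FGB was at 344452, 641836 and 361950 in controls 1 to 3, and fabp10a at 13053, 5315 and 12068, lowest in replicate 2. After hypoxia, replicate 2 had the lowest sum of gys2 (1259), gbe1 (1175), pygl (317), pygm (170), ppp1r3c (4225) and ppp1r3g (1424). It had the highest sum of pygb (663, against 409 and 578), while gys1 (748), ppp1r3b (518) and ppp1r3d (706) lay between the other hypoxia libraries. FGB was also lowest there, at 310001 against 638773 and 623916. The part of hepatocyte content in these values was not tested.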
